A study of Mus musculus with 40 samples.

Results

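The 10 genes described here are 5 genes of tissue macrophages (Csf1r, Adgre1, C1qa, Mrc1 and Lyz2) and 5 genes of MHC class II antigen presentation (Cd74, H2-Aa, H2-Ab1, H2-Eb1 and Ciita). They were chosen by name from the 53647 genes of the count tables, and all 10 were found, had counts and passed the filter on low counts. Bulk RNA-seq had been made from the larynx, esophagus and trachea of untreated, wild-type FVB/N mice, which carried no transgene or altered allele. The tissues were taken at 5 embryonic ages (E10.5, where the larynx is labelled primitive laryngopharynx, then E11.5 and E13.5, and later E15.5 and E18.5). The larynx was also taken at P0, the day of birth, and from adults of 6 to 8 weeks. Each of the 20 groups held 2 libraries, 40 in all (16 of larynx, 12 of esophagus and 12 of trachea). Per the study, embryonic tissue was pooled from 10 animals at an age, or from 20 at E15.5, and the number per library is not given. The sample titles show 2 kinds of library. The 30 libraries named with a short code cover the embryonic ages in all 3 tissues, and the 10 named with an index sequence cover E15.5 in all 3 tissues and the P0 and adult larynx, so that E15.5 was measured with both kinds and every postnatal library is an index library. They are called short-code and index libraries below.

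Macrophages enter embryonic organs from the yolk sac and fetal liver and are replaced or joined after birth, to an extent that differs between organs, by cells from blood monocytes. They depend on signalling through CSF1R, and they clear dying cells and debris. MHC class II molecules display peptides from engulfed proteins to CD4 T cells. Dendritic cells, B cells, thymic epithelium and part of the macrophages make them under the control of the transactivator CIITA. FVB/N mice carry the H2 q haplotype, whose cells display the I-A molecule (H2-Aa with H2-Ab1) and no I-E molecule (which needs H2-Eb1 and an alpha chain that this haplotype lacks).

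Values are normalised counts, that is, a gene's estimated count in a library divided by that library's size factor. The total counts were 3286403 to 26378626 in short-code libraries, where the second lowest was 11628209, and 22553149 to 35831491 in index libraries. Changes are log2 fold changes ± SE from edgeR's quasi-likelihood test fitted to all 40 libraries, with p-values adjusted by Benjamini and Hochberg over the 36495 genes tested, and a gene was called changed at an adjusted p under 0.05. The study calls the paired libraries of a group biological replicates, without saying how the pooled animals were divided between them. In bulk tissue, fewer cells of a type and less RNA per cell cannot be told apart.

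Some libraries stood apart from the rest. The library labelled index E15.5 esophagus library 2 had 310 genes at more than 4 times their level in any other library, against at most 56 such genes elsewhere. Its Igf2, a growth factor gene of fetal tissue, was at 412.1, against 48190 to 108400 in the other 5 index E15.5 libraries and 693.5 to 743.6 in adult larynx. Its Krt13, a keratin of stratified epithelium, was at 973400, against 526.6 to 10390, its embryonic globin Hbb-y was at 0.747, against 68.2 to 348.8, and its Rps2 was at 40590, against 52.7 to 79.3. Its H19 was at 58130, below the 137900 to 240000 of the other index E15.5 libraries. That value lay within the 21270 to 482400 of the other 35 embryonic libraries and above the 3523 to 5099 of adult larynx. These genes were chosen after their values were seen. Of the thymic epithelium list, 4 libraries summed to between 991.6 and 2805 (E13.5 library 1 of all 3 tissues and short-code E15.5 trachea library 2), and the next library summed to 651.2. Index libraries had at most 0.196% of counts in mitochondrial rRNA, against 9.3% to 32.2% for short-code ones. In addition, 3 short-code libraries (E11.5 larynx library 2, E15.5 larynx library 2 and E15.5 trachea library 2) had counts in 685 to 1108 of 1193 olfactory receptor genes.

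The macrophage genes rose in all 3 embryonic tissues, and averaged over the tissues most of the rise on the log2 scale lay between E10.5 and E13.5. In normalised counts Mrc1 and Lyz2 gained more after E13.5. Over 6 short-code libraries Mrc1 averaged 276.6 ± 69.5 at E10.5, 1158 ± 160 at E13.5 and 2726 ± 599 at E18.5 (SD, n = 6 each). Csf1r encodes the receptor for CSF1 and IL-34 (GRCm39 chromosome 18, 61229714 to 61266535, plus strand). In the larynx it had 179.5 and 194.8 normalised counts at E10.5, 223.8 and 250.4 at E11.5, and 1030 and 876.0 at E13.5. It had 1146 and 1125 in the short-code libraries at E15.5, and 1918 and 1686 at E18.5. The libraries of E10.5 and E11.5 did not overlap with those of any later age in the larynx, and the share of all genes with such a gap was not counted. Over the 6 short-code libraries of the 3 tissues, the lowest, median and highest values were 131.7, 187.1 and 228.6 at E10.5, 223.8, 485.8 and 616.5 at E11.5, 876.0, 1072 and 1361 at E13.5, 706.9, 1136 and 1987 at E15.5, and 960.4, 1483 and 1918 at E18.5.

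From E10.5 to E11.5, averaged over the 3 tissues, 4 of the 10 genes rose and none fell, where 7.11% of all genes tested were called (5.03% rose) and the median gene changed by 0.29 on the log2 scale. All 4 were macrophage genes. Csf1r changed by 1.18 ± 0.18 (adjusted p = 4.67e-05) and Adgre1, which encodes the macrophage surface protein F4/80 (chromosome 17, 57665573 to 57790527, plus strand), by 1.62 ± 0.23 (adjusted p = 2.73e-05). C1qa, a chain of the complement component C1q (chromosome 4, 136623223 to 136626161, minus strand), changed by 1.67 ± 0.31 (adjusted p = 0.000744), and Mrc1, the mannose receptor CD206 (chromosome 2, 14234151 to 14336926, plus strand), by 0.98 ± 0.18 (adjusted p = 0.000449). The values of each tissue differed in size. In the larynx Mrc1 had 266.7 and 329.8 at E11.5, against 242.1 and 251.0 at E10.5. In the trachea it had 899.5 and 801.1 at E11.5, against 334.5 and 164.9 at E10.5. The difference between tissues at this step was not tested. Lyz2, the lysozyme of macrophages and neutrophils (chromosome 10, 117111557 to 117118346, minus strand), did not pass, at 1.17 (adjusted p = 0.174). Without index E15.5 esophagus library 2, whose Lyz2 was far from its partner's, the Lyz2 change was 1.17 with an adjusted p of 0.0036.

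From E11.5 to E13.5, all 5 macrophage genes rose, while the median of all genes tested fell by 0.59 on the log2 scale and 21.5% of genes were called (7.84% rose). Csf1r rose by 1.40 (adjusted p = 4.05e-06), Adgre1 by 1.33 (adjusted p = 0.000125), Mrc1 by 1.09 (adjusted p = 7.49e-05), C1qa by 1.71 (adjusted p = 0.000199) and Lyz2 by 1.77 (adjusted p = 0.0081). Adgre1 had 286.4 and 236.9 in the larynx at E13.5, against 85.7 and 65.2 at E11.5. C1qa had 360.1 and 336.4 in the larynx at E13.5, against 90.5 and 79.4 at E11.5. No E13.5 larynx library overlapped an E11.5 larynx library for either gene, and the share of all genes without overlap was not counted. Without the 4 libraries high in thymic epithelium genes, the first 4 of these genes kept their calls, at 1.04 to 1.41, and Lyz2 did not pass, at 1.55 (adjusted p = 0.076; 0.000521 with index E15.5 esophagus library 2 left out too).

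After E13.5 fewer macrophage genes moved. From E13.5 to E15.5, where 30.2% of genes were called (19.5% rose) and the median gene changed by 0.70, only Mrc1 and Lyz2 of the 10 genes rose. Mrc1 rose by 0.70 ± 0.17 (adjusted p = 0.00214), about as much as the median gene, and Lyz2 by 1.26 (adjusted p = 0.0359). Without the 4 libraries high in thymic epithelium genes neither passed, with Mrc1 at 0.61 (adjusted p = 0.0578) and Lyz2 at 1.52 (adjusted p = 0.111), and without these and index E15.5 esophagus library 2 both did (0.0196 and 0.0011). With both kinds of library in 1 mean, Mrc1 was at 0.25 (adjusted p = 0.515). Lyz2 did not pass when any 1 of 9 of the 12 libraries of this step was left out (adjusted p of 0.0513 to 0.105). Csf1r changed by 0.10 (95% interval -0.25 to 0.45), Adgre1 by -0.26 (-0.71 to 0.19) and C1qa by -0.24 (-0.83 to 0.36). From E15.5 to E18.5 none of the 10 genes was called, where 2.9% of genes were (493 rose and 566 fell with the size factors used here, 846 and 413 with TMM factors). Mrc1 came nearest, at 0.52 ± 0.17 (adjusted p = 0.0981), and passed under 6 alternatives (0.52 to 0.97, adjusted p of 0.00986 to 0.0412), among them TMM factors, DESeq2 and leaving out index E15.5 esophagus library 2 (0.0326). In the larynx it had 3490 and 3355 at E18.5, against 2012 and 2019 in the short-code libraries at E15.5.

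**Figure D1:**
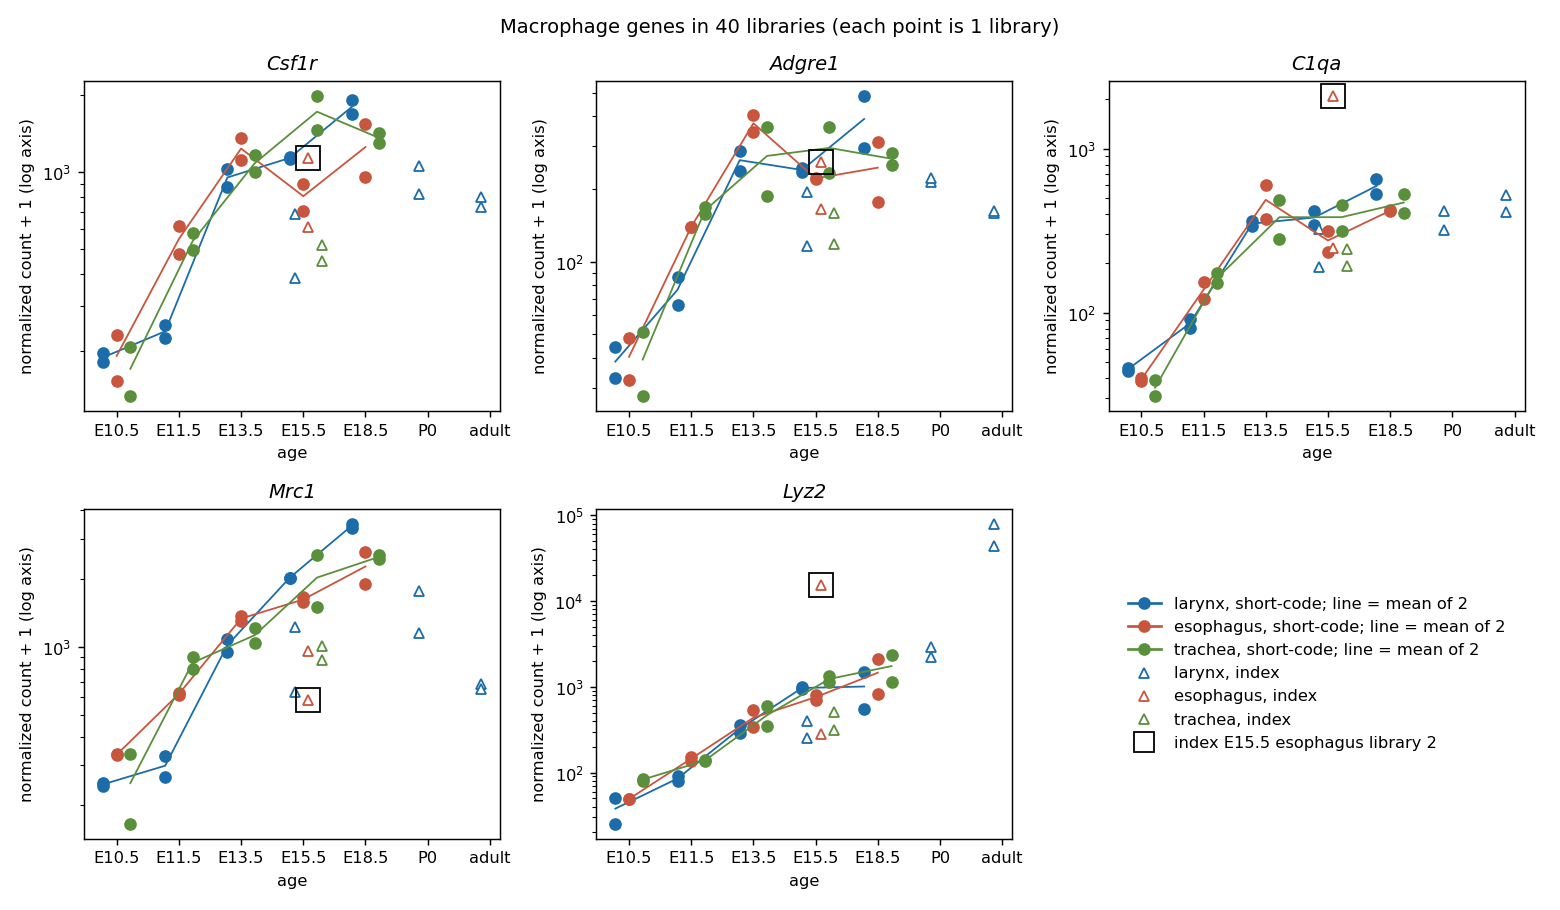
Normalised count plus 1 (log axis) of the 5 macrophage genes against age, with 1 point per library, filled for short-code and open for index libraries, lines through the mean of 2 short-code libraries, and a square round index E15.5 esophagus library 2. Csf1r, Adgre1, C1qa and Mrc1 climb in all 3 tissues up to E13.5, and Lyz2 reaches 43340 and 79660 in the adult larynx, against 2875 and 2194 at P0.

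Over the whole embryonic course, E18.5 against E10.5, all 5 macrophage genes rose in each tissue, where 23% of genes were called in the larynx (12.9% rose), 22.3% in the esophagus (12.5% rose) and 20.4% for the trachea (11.2% rose), with a median gene at 0. In the larynx Mrc1 had 3490 and 3355 at E18.5, against 242.1 and 251.0 at E10.5, a change of 3.79 ± 0.33 (adjusted p = 2.9e-09). Csf1r changed by 3.27 ± 0.32 (adjusted p = 1.76e-08), Adgre1 by 3.36 ± 0.41 and C1qa by 3.74 ± 0.56. Lyz2 had 543.9 and 1468 at E18.5, against 49.6 and 24.2 at E10.5, a change of 4.78 ± 0.93 (adjusted p = 0.000261). No E18.5 library overlapped an E10.5 library for any of the 5, and the share of all genes without overlap was not counted. In the esophagus the 5 changes lay between 2.62 (Adgre1) and 4.92 (Lyz2), and in the trachea between 2.78 (Adgre1) and 4.41 (Lyz2). The course did not pass a test of difference between the larynx and the mean of the esophagus and trachea for any of the 10 genes, where 0.216% of genes were called. The differences were 0.40 for Csf1r (95% interval -0.36 to 1.16) and 0.76 for Mrc1 (-0.0042 to 1.52), so that a course up to 1.52 steeper in the larynx on the log2 scale lies within the interval for Mrc1. None differed in mean level over the 5 embryonic ages either, where 0.0986% of genes were called. There the intervals were narrower, at -0.20 for Csf1r (-0.44 to 0.04) and -0.22 for Mrc1 (-0.46 to 0.03).

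Other genes of the macrophage list rose at the same early steps. Of 30 further genes, 14 rose and none fell from E10.5 to E11.5, where 5.03% of all genes rose, with a median change over the list of 1.14. From E11.5 to E13.5, 20 rose and none fell, where 7.84% of all genes rose, with a median of 1.26. From E13.5 to E15.5, 4 rose and 5 fell, a share close to the 30.2% of all genes called at that step. In the larynx at E18.5 against E10.5, 23 of 30 rose, where 12.9% of all genes did, with a median of 2.68, among them the scavenger receptor Stab1 (2.72), the hyaluronan receptor Lyve1 (5.85), the transcription factor Maf (2.00) and C1qb, the second chain of C1q (3.19). Stab1 and Lyve1 are also made by endothelium. Both ligands of CSF1R rose as well. Csf1 rose by 0.69 from E10.5 to E11.5 and by 2.76 over the larynx course, and Il34, which passed at both steps, had 51 and 34 counts in the E18.5 larynx, against 0 and 3 counts at E10.5.

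Of the class II genes, H2-Aa, H2-Ab1, H2-Eb1 and Cd74 are known for promoters that bind the RFX, CREB and NFY factors and, through them, CIITA, the product of the remaining gene, Ciita. Promoter windows in the RefSeq table (GRCm38.p6, the C57BL/6J reference and not FVB/N) matched 4 of the 10 genes: H2-Aa, H2-Eb1, Mrc1 and Lyz2. The windows of H2-Aa and H2-Eb1 are shown whole, since these neighbours had very different levels in the adult larynx and no other class II gene of the 10 matched, and shorter stretches are shown for H2-DMb1 and H2-Ob of the class II pathway. Capitals mark the core of the X box (searched as CTNGNAAC) and the Y box (searched as TGATTGG).
H2-Aa: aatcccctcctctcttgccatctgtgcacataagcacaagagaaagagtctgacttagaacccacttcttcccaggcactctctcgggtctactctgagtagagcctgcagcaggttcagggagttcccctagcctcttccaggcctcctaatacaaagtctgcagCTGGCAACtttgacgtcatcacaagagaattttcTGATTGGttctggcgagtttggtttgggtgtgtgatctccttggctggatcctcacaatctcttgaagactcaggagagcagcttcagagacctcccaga
H2-Eb1: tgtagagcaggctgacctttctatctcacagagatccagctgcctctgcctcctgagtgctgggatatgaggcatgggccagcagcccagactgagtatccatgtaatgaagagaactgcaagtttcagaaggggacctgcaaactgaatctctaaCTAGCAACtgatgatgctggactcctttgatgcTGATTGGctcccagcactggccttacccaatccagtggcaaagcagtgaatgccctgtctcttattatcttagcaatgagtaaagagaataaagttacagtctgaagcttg
H2-DMb1: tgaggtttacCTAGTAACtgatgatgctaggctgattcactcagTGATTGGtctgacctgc
H2-Ob: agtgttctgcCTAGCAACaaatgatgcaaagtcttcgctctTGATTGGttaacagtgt
The H2-Aa window is chr17:34287774-34288073 on the minus strand and the H2-Eb1 window chr17:34305617-34305916 on the plus strand. The stretches are chr17:34153084-34153144 for H2-DMb1 and chr17:34238805-34238862 for H2-Ob, both on the plus strand. The X core starts 84 bases before the start of H2-Aa and the Y box 50 bases before it, a spacing of 34 bases. In H2-Eb1 they start 94 and 61 bases before the gene, a spacing of 33 bases. The spacing is 34 bases in H2-DMb1 and 31 bases in H2-Ob. Over both strands of all 32851 promoter windows of the table, 13.2% held the X core, 7.82% held the Y box, and 7 windows (0.0213%) held the X core and then the Y box on 1 strand with starts 31 to 34 bases apart. That range was taken from the 4 genes shown, which are among the 7, so the share is a description and no test. The windows of Mrc1 and Lyz2 held neither motif.

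Before birth the class II genes had few counts at E10.5 and E11.5, and later differed widely between libraries of 1 age. Cd74, the invariant chain that guards the peptide groove (chromosome 18, 60936899 to 60945731, plus strand), had 1.07, 1.86 and 6.06 normalised counts as the lowest, median and highest of 6 libraries at E10.5. It had 4.76, 12.7 and 25.1 at E11.5, 18.4, 185.2 and 692.0 at E13.5, 67.7, 114.0 and 1031 in the short-code libraries at E15.5, and 116.1, 170.2 and 227.9 at E18.5. The medians were higher at E13.5 and later than at E10.5 and E11.5, and the spread within an age was widest at E13.5 and E15.5. The H2-Aa gene encodes the alpha chain of I-A (chromosome 17, 34493404 to 34506798, minus strand). It had 0, 0.87 and 1.18 at E10.5, 0, 3.20 and 14.1 at E11.5, 5.91, 64.6 and 257.0 at E13.5, 33.9, 50.5 and 522.8 at E15.5, and 48.6, 85.8 and 106.5 at E18.5. H2-Ab1, the beta chain of I-A (chromosome 17, 34476663 to 34488393, plus strand), had a median of 2.77 at E10.5 and of 83.9 at E18.5.

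None of the 5 class II genes was called from E10.5 to E11.5. Without the 4 libraries high in thymic epithelium genes and index E15.5 esophagus library 2, Cd74 (2.53, adjusted p = 4.3e-05) and H2-Aa (2.56, adjusted p = 0.00557) were. From E11.5 to E13.5, 3 of them rose: Cd74 by 4.13 ± 0.84 (adjusted p = 0.000853), H2-Aa by 4.35 ± 0.90 (adjusted p = 0.000946) and H2-Ab1 by 4.75 ± 0.95 (adjusted p = 0.000725). Over genes with a mean of at least 50, same-numbered E13.5 libraries of different tissues deviated together (correlations of 0.214 to 0.266), so the 6 libraries may not be independent, which this test assumes. They also fell into 2 levels. Cd74 was at 473.6 in esophagus library 1, 692.0 in trachea library 1 and 304.6 in larynx library 1, and at 65.8, 32.5 and 18.4 in library 2 of the same tissues, in that order. The same 3 libraries of E13.5, with short-code E15.5 trachea library 2 (Cd74 1031, its partner 86.0), were the 4 with the highest summed thymic epithelium genes. Those sums were 2805, 2489, 991.6 and 1787, the thymic protease gene Prss16 was at 1210, 1067, 381 and 821, and the T cell genes summed to 881.7, 990.4, 334.0 and 3932. Without these 4 libraries the 3 genes did not pass from E11.5 to E13.5, at 1.25 for Cd74 (adjusted p = 0.263), 1.48 for H2-Aa (0.266) and 0.99 for H2-Ab1 (0.531). Then 4 of the 10 genes were called, all macrophage genes, where 15.7% of genes tested were. With index E15.5 esophagus library 2 left out as well, Cd74 (1.26, adjusted p = 0.00421) and H2-Aa (1.48, adjusted p = 0.0258) passed again at these smaller changes, and H2-Ab1 did not (1.00, adjusted p = 0.202). Single libraries also ended calls: H2-Aa did not pass without trachea E13.5 library 1 (2.86, adjusted p = 0.0506), nor H2-Ab1 without larynx E13.5 library 1 (3.11, adjusted p = 0.112). From E13.5 to E15.5 none of the class II genes was called, and without the 4 libraries H2-Ab1 was, at 2.51 (adjusted p = 0.0198), where 21% of genes were called. Without these 4 and index E15.5 esophagus library 2, Cd74 (1.499), H2-Aa (1.96) and H2-Ab1 (2.51) all rose from E13.5 to E15.5 (adjusted p of 0.000132 to 0.000716).

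**Figure D2:**
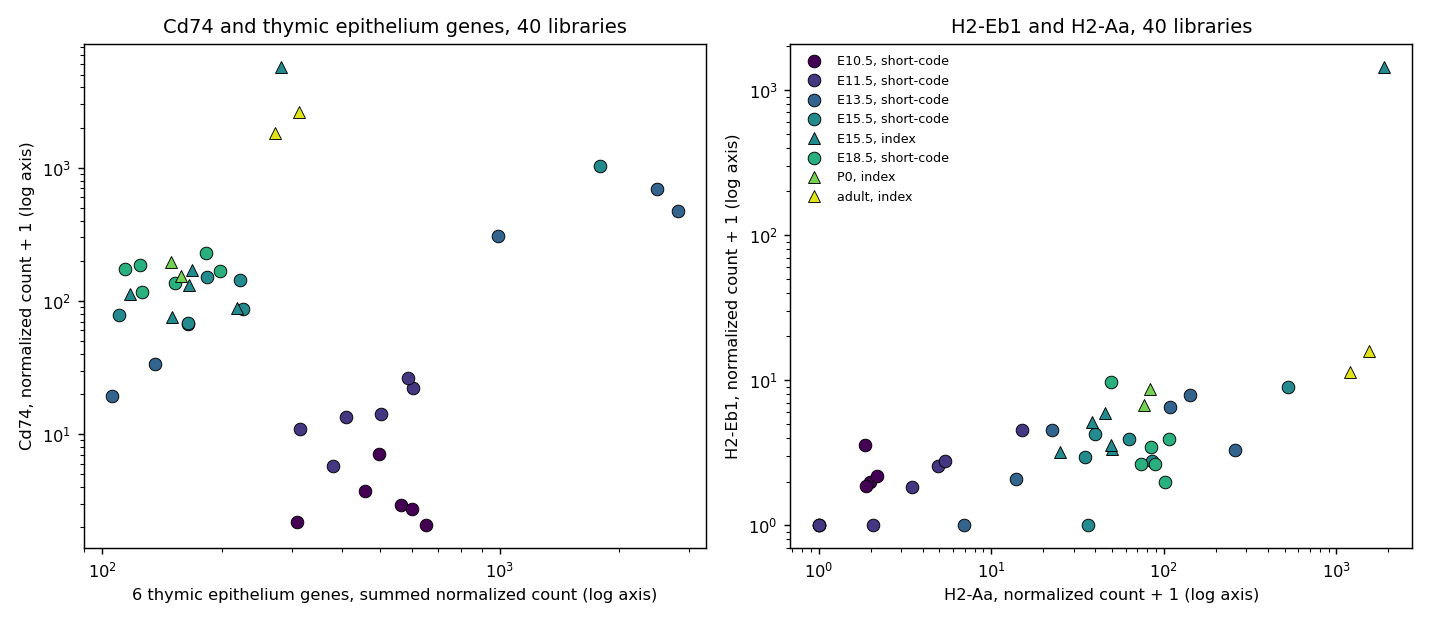
Left, Cd74 (normalised count plus 1) against the summed normalised count of 6 thymic epithelium genes, and right, H2-Eb1 against H2-Aa (both normalised count plus 1), with 1 point for each of the 40 libraries, coloured by age, and log axes throughout. The 4 libraries with thymic epithelium sums of 991.6 to 2805 hold the highest Cd74 levels of the short-code libraries, 304.6 to 1031, and index E15.5 esophagus library 2 has an H2-Eb1 level (1441) near its H2-Aa level (1889), as otherwise seen only at E10.5, with at most 3 counts of either gene.

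At E18.5, where the thymic epithelium genes summed to 113.8 to 198.1, Cd74, H2-Aa and H2-Ab1 stood above their E10.5 values in every library of all 3 tissues. The share of all genes with this order was not counted. In the larynx Cd74 had 173.5 and 183.6 at E18.5, against 1.18 and 6.06 at E10.5, a change of 5.48 ± 1.63 (adjusted p = 0.0132). H2-Aa had 106.5 and 83.1 at E18.5, against 1.18 and 0.87 at E10.5, a change of 6.41 ± 1.82 (adjusted p = 0.00958). H2-Ab1 had 51.0 and 76.9 at E18.5, against 3.54 and 2.60 at E10.5, and did not pass (4.36, adjusted p = 0.0549; 0.0236 without index E15.5 esophagus library 2). The E10.5 levels rest on few reads. In the larynx Cd74 had 267 counts at E18.5, against 8 at E10.5, a ratio of 44.8 with an exact 95% interval for counting error of 22.4 to 105. H2-Aa had 140 counts at E18.5, against 2 at E10.5, a ratio of 94.0 (25.5 to 783). In the esophagus and trachea Cd74, H2-Aa and H2-Ab1 all rose, by 5.36 to 7.11, each with 5 or fewer counts at E10.5. For H2-Aa in the trachea, with 142 counts at E18.5 against 1 at E10.5, the ratio was 161 (28.5 to 6408). With 1 of the 2 E10.5 libraries of its own tissue left out, none of these class II calls held (adjusted p of 0.0512 to 0.195), while the macrophage genes kept theirs. H2-Eb1 and Ciita were called in no tissue.

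**Figure D3:**
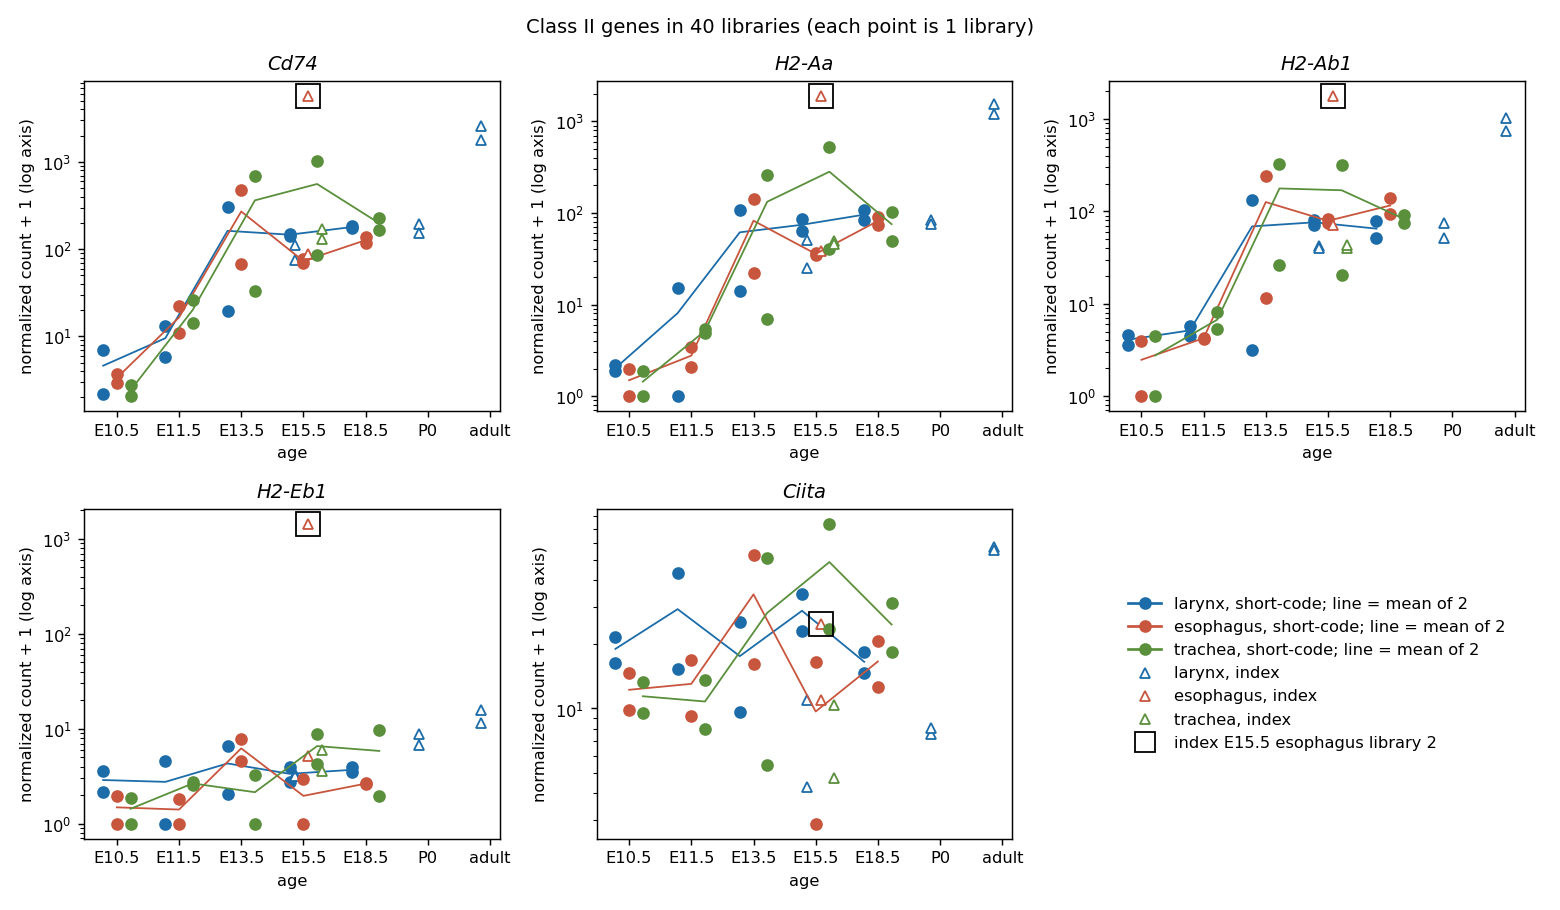
Normalised count plus 1 (log axis) of the 5 class II genes against age, with 1 point per library, filled for short-code and open for index libraries, lines through the mean of 2 short-code libraries, and a square round index E15.5 esophagus library 2. Cd74, H2-Aa and H2-Ab1 fall into 2 levels at E13.5 and are highest among larynx libraries in the adult (Cd74 1807 and 2601, against 193.5 and 151.6 at P0), and H2-Eb1 stays at or below 14.9 in all libraries but the boxed one.

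Ciita, the transactivator of class II genes (chromosome 16, 10297923 to 10347694, plus strand), had low counts throughout the embryo, with medians of 6 short-code libraries of 13.0 at E10.5, 13.4 at E11.5, 19.9 at E13.5, 22.5 at E15.5 and 17.5 at E18.5. At E13.5 it showed the same 2 levels as Cd74. It was at 51.7, 49.9 and 24.6 in library 1 of esophagus, trachea and larynx, and at 15.1, 4.43 and 8.65 in library 2 of the same tissues. It was 72.9 in short-code E15.5 trachea library 2. Over the embryonic course its ratio of E18.5 to E10.5 was 0.834 in the larynx (exact 95% interval for counting error 0.473 to 1.44), 1.38 in the esophagus (0.716 to 2.63) and 2.32 in the trachea (1.36 to 4.06), and it was called in none of them. Of the 16 other genes of the class II pathway, 2 rose from E10.5 to E11.5, where 5.03% of all genes rose, the lysosomal reductase gene Ifi30 (0.88) and the protease gene Ctss (1.43), which trims the invariant chain. From E11.5 to E13.5, where 21.5% of all genes were called, 4 rose and 2 fell, with Ifi30 at 1.24 and the subunit of the RFX complex Rfxank at 0.70 among those that rose, and the promoter-binding factors Creb1 (-0.45) and Nfya (-0.51) as those that fell. Both of these fell by less than the median of all genes. In the larynx at E18.5 against E10.5, Ctss (2.55) and Ifi30 (2.25) rose, and Creb1, Nfya and Nfyb fell, where 23% of all genes were called.

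The class I pathway, which displays peptides to CD8 T cells and is made by most cells, was measured beside it. Of 11 class I genes, 4 rose from E10.5 to E11.5 and 10 from E11.5 to E13.5, with none falling at either step, where 5.03% and 7.84% of all genes rose. In the larynx 9 of 11 rose at E18.5 against E10.5, where 12.9% of all genes did, with a list median of 2.22, among them the heavy chain H2-D1 (2.22), its partner B2m (2.16) and the peptide loading factor Tapbp (2.43). Of 8 genes of the interferon gamma pathway, which drives Ciita in many cells, 6 rose over the same larynx course, against the same 12.9%, among them the receptor chains Ifngr1 (1.99) and Ifngr2 (2.24) and the kinase gene Jak1 (1.53).

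In the adult, all 5 class II genes had their highest levels among larynx libraries of both kinds, while Csf1r, Adgre1 and C1qa lay within the range of the earlier larynx libraries. In the index libraries Csf1r had 685.1 and 382.5 normalised counts at E15.5, 818.2 and 1052 at P0, and 729.9 and 801.3 in the adult. Adgre1 had 193.8 and 114.7 at E15.5, 212.3 and 219.9 at P0, and 157.7 and 161.4 in the adult. C1qa had 322.0 and 189.9 at E15.5, 318.1 and 417.8 at P0, and 411.2 and 518.5 in the adult. For none of the 3 were both adult libraries above all E15.5 and P0 libraries, and none was called. Between adult and P0 they changed by -0.29 (95% interval -0.89 to 0.32), -0.44 (-1.21 to 0.34) and 0.34 (-0.68 to 1.36), so that the interval for C1qa reaches a change of 1.36 on the log2 scale.

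Cd74 had 110.7 and 74.1 at E15.5, 193.5 and 151.6 at P0, and 1807 and 2601 in the adult larynx. H2-Aa had 49.2 and 24.1 at E15.5, 82.2 and 75.4 at P0, and 1194 and 1548 in the adult. H2-Ab1 had 41.6 and 39.0 at E15.5, 74.4 and 50.5 at P0, and 736 and 1021 in the adult. The adult libraries lay above all other larynx libraries for each of these genes, and each P0 value lay above both index E15.5 values. The share of all genes with that order of P0 and E15.5 was not counted. Ciita had 9.95 and 3.29 at E15.5, 6.62 and 7.12 at P0, and 56.3 and 54.9 in the adult. In means, the adult larynx had 12.8 times the P0 level of Cd74, 17.4 times that of H2-Aa, 14.1 times that of H2-Ab1 and 8.10 times that of Ciita. Both adult libraries were above all 4 libraries of E15.5 and P0 for 6 of the 10 genes, Lyz2 and all 5 class II genes, where this held for 18.6% of genes tested.

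Whether the adult against P0 difference passed the test depended on the libraries in the fit, the filter on low counts and the method. In the fit to all 40 libraries, 4.13% of genes were called (2.08% rose) and 2 of the 10 were, Lyz2 and Mrc1. Cd74 was at 3.67 ± 1.27 (adjusted p = 0.111), H2-Aa at 4.12 ± 1.3 (0.0731), H2-Ab1 at 3.81 ± 1.35 (0.122) and Ciita at 3.00 ± 0.93 (0.0652). With the library labelled index E15.5 esophagus library 2 left out, which belongs to neither side of the comparison, 10.1% of genes were called and 6 of the 10 were. All 4 of these class II genes then rose: Cd74 (adjusted p = 0.0166), H2-Aa (0.00916), H2-Ab1 (0.0334) and Ciita (0.026). In a fit to the 6 index libraries of the larynx alone, 22.1% of genes were called and the same 6 were, with adjusted p-values of 6.67e-05 for Cd74, 6.85e-05 for H2-Aa, 5.73e-05 for H2-Ab1 and 0.0032 for Ciita. Both of these fits were chosen after seeing the data. With DESeq2 (14.9% of genes called) or with no filter on low counts (7%), 6 of the 10 were also called, and with both kinds of library in 1 mean per age (1.59%), 1 was. Cd74 had an adjusted p of 0.0211 with DESeq2, 1.01e-16 with no filter and 0.375 with both kinds in 1 mean. Against E15.5 in the fit to all libraries, where 13.2% of genes were called (7.54% rose), the same 4 class II genes rose in the adult, Cd74 by 4.58 ± 1.33 (adjusted p = 0.0196), H2-Aa by 5.22 (0.0103), H2-Ab1 by 4.44 (0.032) and Ciita by 3.05 (0.026), and Lyz2 rose by 7.56. With both kinds of library in 1 mean, Ciita was at 1.73 (adjusted p = 0.295). None of these 4 calls held when either E15.5 larynx index library was left out (adjusted p of 0.0618 to 0.285), and H2-Ab1 and Ciita did not pass without either adult library (0.065 to 0.105), nor Cd74 without adult library 2 (0.0725). From E15.5 to P0 none of the 10 genes was called, where 0.559% of genes were.

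**Figure D4:**
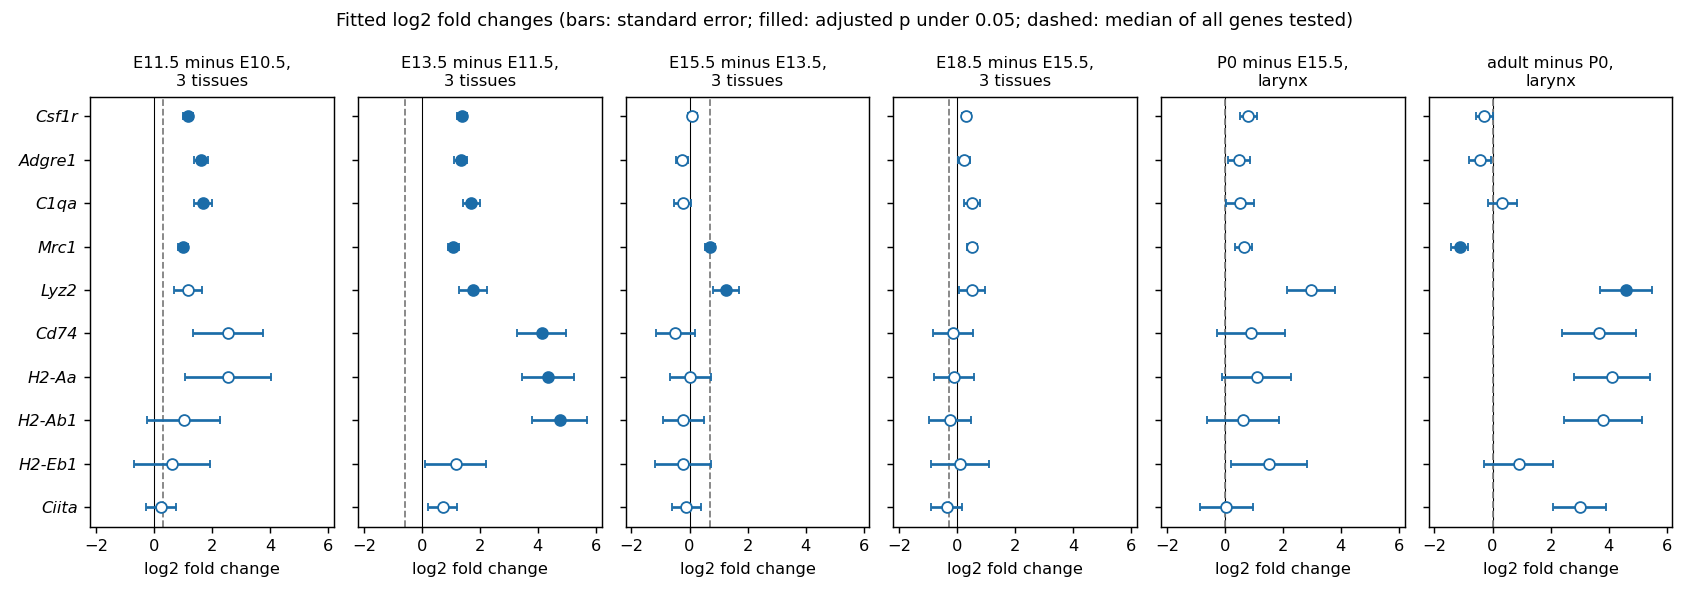
Fitted log2 fold changes of the 10 genes in 6 comparisons, with SE bars, filled points for an adjusted p under 0.05 and a dashed line at the median of all genes tested. The macrophage genes lie to the right of the dashed line up to E13.5, and in adult against P0 larynx Cd74, H2-Aa, H2-Ab1 and Ciita lie at 3.00 to 4.12 with wide bars, while Mrc1 lies at -1.13.

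Lyz2 and Mrc1 moved in opposite directions after birth. Lyz2 had 400.5 and 250.8 in the index libraries at E15.5, 2875 and 2194 at P0, and 43340 and 79660 in the adult larynx. It rose by 4.601 ± 0.895 in the adult against P0 (adjusted p = 0.00269), a ratio of means of 24.3, and did not pass from E15.5 to P0 (2.96, adjusted p = 0.0921; 0.000238 without index E15.5 esophagus library 2). The call in the adult was lost when either P0 library was left out (adjusted p of 0.0531 and 0.0785). Mrc1 had 1223 and 633.3 at E15.5, 1155 and 1765 at P0, and 684.8 and 654.1 in the adult, and fell by 1.13 ± 0.30 on the log2 scale in the adult against P0 (adjusted p = 0.0267). The call was lost without either adult library or without P0 library 2 (adjusted p of 0.183 to 0.429), and the adult and E15.5 values overlapped. Other genes moved beside Lyz2. Its neighbour Lyz1, the lysozyme of Paneth and gland cells, had 5177 and 14927 in the adult, against 338.0 and 376.5 at P0, and reads may be split between these 2 similar genes. The lactoferrin gene Ltf of neutrophils and glands had 138590 and 208460 in the adult, against 11325 and 12213 at P0. A list of gland and secretory epithelium genes summed to 287610 to 455060 in the adult, against 41572 to 77888 at P0. The part of glands in the Lyz2 levels was not tested.

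Markers of other class II cells were measured in the same libraries. Dendritic cell genes summed to 665.5 to 725.1 in the adult, against 387.6 to 402.2 at P0. Of the 12, 1 was called, Cd209a, where 4.13% of all genes were called. Cd209a had 80.5 and 105.2 in the adult, against 0.6 and 3.6 at P0 (5.48, adjusted p = 0.0313). B cell genes summed to 829.7 to 926.3 in the adult, against 83.8 to 94.0 at P0, and nearly all of that was the antibody heavy chain Ighm (868.3 and 783.9 in the adult, against 39.1 and 37.0 at P0; 4.43, adjusted p = 3.6e-05), while the B cell receptor chain Cd79a was at 7.2 and 7.7 in the adult, against 2.8 and 3.6 at P0. T cell genes summed to 132.8 to 143.3 in the adult, against 124.6 to 128.1 at P0. The part of each cell type in the class II levels was not tested. Irf1, a factor that interferon gamma induces upstream of Ciita, rose by 1.86 (adjusted p = 0.00535), with 1018 and 1464 in the adult, against 349.0 and 334.5 at P0, and Ifng itself had no count in any of the 6 index larynx libraries. Of the 30 other macrophage genes none rose and 1 fell in the adult against P0, where 4.13% of all genes were called. The 1 that fell was the scavenger receptor gene Marco, with 0 and 3 counts in the adult, against 99 and 25 counts at P0. Against E15.5, 5 of the 30 rose in the adult (Ptprc, Itgam, Cd14, Cd163 and Folr2), where 7.54% of all genes rose, and Cx3cr1 fell by 2.63. Of the 11 class I genes 9 rose in the adult against E15.5, against the same 7.54% of all genes. Among them were H2-D1 (3.36) and H2-K1 (2.80), and none of the 11 was called against P0. Thyroid follicle genes, a sign of neighbouring gland in the dissection, summed to 183.5 to 221.5 in the adult, against 82262 to 144380 at P0.

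Among larynx libraries the ratio of class II to Csf1r counts was also highest in the adult. Cd74, H2-Aa and H2-Ab1 together summed to 5.12 and 6.45 times the Csf1r level of the same library in the adult larynx. This ratio was 0.428 and 0.264 at P0 and 0.294 and 0.359 in the index larynx libraries at E15.5. The ratio was higher, at 8.27, in index E15.5 esophagus library 2. Levels were also divided by the kilobases of all annotated exons of a gene. Lengths of the expressed transcripts were not used, so comparisons between genes are rough. Before this division H2-Aa (1194 and 1548) lay above H2-Ab1 (735.5 and 1021) in the adult larynx. Per kilobase, the adult larynx levels were 13000 and 24000 for Lyz2, 719 and 1030 for Cd74, 286 and 398 for H2-Ab1, 278 and 361 for H2-Aa, and 255 and 322 for C1qa. Csf1r followed at 99.2 and 109 per kilobase and Mrc1 at 87.5 and 83.6, then Adgre1 at 44.8 and 45.8, Ciita at 5.10 and 4.97, and H2-Eb1 at 4.03 and 5.72. The ranges of H2-Ab1, H2-Aa and C1qa overlapped, as did those of Ciita and H2-Eb1, and the other neighbours in this order did not.

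H2-Eb1, the beta chain of I-E (chromosome 17, 34504236 to 34535648, plus strand), stayed low where the other class II genes were high. In the adult larynx it had 10.46 and 14.85 normalised counts, against 7.72 and 5.69 at P0, and the difference did not pass (0.90, adjusted p = 0.901). Its ratio to H2-Aa, whose gene lies on the opposite strand and overlaps it, was 0.00876 to 0.0096 in the adult larynx. In 39 of the 40 libraries it was at or below 14.9. The exception was index E15.5 esophagus library 2, with 1441 (1930 counts) and a ratio to H2-Aa of 0.763. That library also had the highest level of Cd74 (5703), H2-Aa (1889), H2-Ab1 (1770) and C1qa (2096) of all 40, and 15480 of Lyz2. Its partner, esophagus library 1, had 4.13 of H2-Eb1, 87.2 of Cd74 and 281.6 of Lyz2. The sources used here give no strand setting for the counting, so reads where H2-Eb1 and H2-Aa overlap may be counted to either.

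The comparison of the 2 kinds of library at E15.5 bears on every pair of ages that crosses them. Averaged over the tissues, 26.4% of genes were called between index and short-code libraries (3761 were higher and 5880 lower in index libraries with the size factors used here, 5181 and 4990 with TMM factors), and the median gene was at -0.39. Csf1r was lower in index libraries by 0.94 ± 0.17 (adjusted p = 0.000105), Mrc1 by 1.10 ± 0.17 (adjusted p = 1.63e-05) and Adgre1 by 0.60 ± 0.22 (adjusted p = 0.0414), which was lost without the 4 libraries high in thymic epithelium genes (-0.48, adjusted p = 0.139) and with TMM factors (-0.44, adjusted p = 0.155). H2-Eb1 was higher by 2.83 (adjusted p = 0.0176), and at 0.37 (adjusted p = 0.967) without index E15.5 esophagus library 2, where 29.6% of genes were called. Kind of library, sequencing and any difference in dissection cannot be told apart here, so P0 and adult larynx were tested only against index libraries. The exceptions were the age curve and the alternative with both kinds of library in 1 mean.

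A smooth curve over age, the form of test the study used, gave calls at an adjusted p of at most 0.01 for 8 of the 10 genes in the larynx over 7 ages, where 26.1% of genes were called. H2-Eb1 (adjusted p = 0.0301) and Ciita (0.167) were not called. That curve joins short-code embryonic libraries to index postnatal ones. With short-code libraries alone, and so no postnatal age, it called 5 of the 10, all macrophage genes, where 3521 of 30508 genes tested were called. Over the 5 embryonic ages in the 3 tissues, where 34.4% of genes were called, 9 of 10 were, all but Ciita (0.664), and without index E15.5 esophagus library 2 H2-Eb1 was not called either (0.153).

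Across all 40 libraries, the genes whose log2 levels were most like Csf1r among 14344 genes with a mean of at least 50 were Adgre1 (Pearson r = 0.954), Selenop (0.933), Slco2b1 (0.931), the Fc receptor gene Fcgr3 (0.926) and the lysosomal protease gene Lgmn (0.917). Those most like Cd74 were H2-Aa (0.972), H2-Ab1 (0.951), the immunoproteasome subunit gene Psmb8 (0.938), Ifitm3 (0.930) and Alox5ap (0.917). The 40 points share tissues, ages and kinds of library, so these values are descriptions. Csf1r and Cd74 themselves correlated at 0.764.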

How the data were processed

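Bulk poly-A RNA-seq was measured in 40 libraries. Per the submitters' processing notes, reads were checked with FastQC 011.5 and quantified with Bowtie2 2.4.2 and RSEM 1.3.3 on GRCm39. The sources used here name no annotation release and no strand setting. The deposited files hold the authors' expected counts per Ensembl gene, not normalised, in 2 tables whose columns all matched a sample. Names were taken from GENCODE for 52610 of 53647 genes. The 10 genes and all gene lists were chosen with earlier results of these data known.

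Expected counts were rounded to whole numbers, because the test needs counts. Genes that reached a normalised count of 1 in 2 or more libraries were kept (36495), and edgeR 4.0.16 in R 4.3.3 was fitted with median-ratio size factors, 1 mean for each of 20 groups of tissue, age and kind of library, and 20 residual degrees of freedom. Tests were quasi-likelihood F tests with Benjamini-Hochberg adjustment at 0.05. The SE is the absolute change divided by the square root of F, and 95% intervals of changes use the 20 residual degrees of freedom. These intervals need not match the p-values of the F test. For the Mrc1 difference in course between tissues, the unadjusted p of that test was 0.0477, although the interval includes no change. Age curves were natural splines with 3 degrees of freedom on the rank of age, called at 0.01. Counts were also simulated for all 40 libraries (34966 genes), with changes put into the adult larynx. At changes of 1, 2, 3 and 4 on the log2 scale, adult against P0, the fit recovered 6%, 36%, 88% and 94% of changed genes. It called 0.0115% of unchanged genes. For the simulated larynx age curve (32817 genes) 24% were recovered at 1 per 3 ranks of age and 100% at 2 or more. The simulation had the same spread for every gene, no library that stood apart and no changed gene of low mean. In the data Cd74, H2-Aa and H2-Ab1 had an SE of 1.27 to 1.35 for adult against P0, so the recovered shares do not apply to them. Intervals of count ratios are exact, at 95%, and cover counting error only.

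Of the genes outside the 10, the text names up to 4 per list and comparison, those with the highest mean count among the called, unless it says otherwise. Alternatives were TMM factors, other filters, DESeq2 1.42.0, pooling both kinds of library, the replicate number as a block, and leaving out libraries. Of the libraries left out, 5 were chosen after seeing the data (4 high in thymic genes and 1 esophagus library that stood apart in many genes). Whether the label of that esophagus library is right was not tested.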

Additional observations from a re-analysis of the deposited data

How the results depend on the processing

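Of the 10 genes, those called in the embryonic course kept their direction under every alternative, and the counts of called genes moved as follows. The share of all genes called moved as well. In adult against P0 larynx it was 4.13% in the report, 7% with no filter and 14.9% with DESeq2. It was 10.1% without index E15.5 esophagus library 2, 22.1% in the 6 index larynx libraries and 1.59% with both kinds in 1 mean. The counts below therefore describe how calls depend on the setting and are no result on the 10 genes. With no filter on low counts, 7 were called for E11.5 against E10.5 (4 in the report), 1 for E18.5 against E15.5 (0), 1 in the larynx against the mean of the other tissues (0), 1 for P0 against E15.5 (0) and 6 in adult against P0 larynx (2). With DESeq2, 1 was called for E18.5 against E15.5, 1 for P0 against E15.5 and 6 in adult against P0. With TMM factors, 1 was called for E15.5 against E13.5 (2) and 1 for E18.5 against E15.5, and H2-Aa turned to -0.10 for E15.5 against E13.5. With both kinds of library in 1 mean, 1 was called for E15.5 against E13.5, 1 for E18.5 against E15.5 and 1 in adult against P0, and for E15.5 against E13.5 Cd74 turned to 0.65 and H2-Ab1 to 0.32. Without the 3 libraries rich in olfactory receptor counts, 1 was called for E15.5 against E13.5 and 2 between kinds of library at E15.5 (4), while H2-Aa turned to -0.995 for E15.5 against E13.5 and, for E18.5 against E15.5, Cd74 turned to 0.78. With short-code libraries only, the larynx age curve called 5 (8), all postnatal libraries being left out.

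Without the 4 libraries high in thymic epithelium genes, 4 were called for E13.5 against E11.5 (8), 1 for E15.5 against E13.5 and 6 in adult against P0, while Cd74 turned to 1.501 and H2-Ab1 to 2.51 for E15.5 against E13.5. Cd74 turned to 0.76 for E18.5 against E15.5. Without these 4 and index E15.5 esophagus library 2, 7 were called for E11.5 against E10.5, 5 for E15.5 against E13.5, 3 for E18.5 against E15.5, 2 for P0 against E15.5 and 6 in adult against P0. Cd74 was then at 1.499 and H2-Ab1 at 2.51 for E15.5 against E13.5. Cd74 was at 0.77 for E18.5 against E15.5. Between kinds of library, C1qa turned to -0.41 and Lyz2 to -1.56. Without the esophagus library alone, 1 was called for E18.5 against E15.5, 1 for P0 against E15.5 and 6 in adult against P0, and between kinds of library C1qa turned to -0.51, Lyz2 to -1.52 and Cd74 to -0.75. In the 6 index larynx libraries alone, 2 were called for P0 against E15.5 and 6 in adult against P0. The cause was not tested for the alternatives that keep all libraries.

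Leaving out 1 library at a time, where a group left with 1 library is assumed to vary like the others, gave 1 to 2 calls for E15.5 against E13.5, 0 to 1 for E18.5 against E15.5, 5 to 8 in the esophagus and 5 to 7 in the trachea at E18.5 against E10.5 (8 each), 0 to 1 in adult against P0, 1 to 3 in adult against E15.5 (5) and 2 to 6 between kinds of library. The ranges of the values that turned were -1.39 to 0.68 for Cd74, -0.92 to 1.53 for H2-Aa and -1.25 to 1.43 for H2-Ab1 for E15.5 against E13.5, -0.43 to 0.77 for Cd74 for E18.5 against E15.5, and, between kinds of library, -0.51 to 0.515 for C1qa, -1.52 to 0.40 for Lyz2 and -0.75 to 1.83 for Cd74. Over all 190 pairs of groups, replicate numbers showed no common pairing. Same-numbered deviations correlated at -0.422 to 0.442, above 0.1 in 43 pairs and below -0.1 in 37. Of the 190 pairs, 18 joined tissues of 1 age and kind, and 10 of these 18 were above 0.1. Among them were all 3 at E13.5 (0.214 to 0.266) and all 3 at E18.5 (0.143 to 0.188). With the replicate block, no call on the 10 genes changed, with 2 calls in adult against P0 and Cd74 at 3.71 there (adjusted p = 0.124). On the CPM scale the adult to P0 ratio moved to 0.694 for Adgre1 and 7.62 for Ciita. Depth limits the E10.5 class II values, which rest on 8 counts or fewer per tissue for Cd74, H2-Aa, H2-Ab1 and H2-Eb1.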

Other observations

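Genes of circulating myeloid cells were also measured. Of 12 monocyte and neutrophil genes, 6 rose and none fell from E10.5 to E11.5 over the 3 tissues, where 5.03% of all genes rose, among them the neutrophil calprotectin genes S100a9 (4.596) and S100a8 (3.09) and the monocyte chemokine receptor gene Ccr2 (2.04), with a list median of 3.11, against 0.29 for the median of all genes tested. In the larynx at E18.5 against E10.5, 7 of the 12 rose, where 12.9% of all genes did, and 1 fell, the granule protease gene Prtn3 (-6.79). The highest counts of the 12 were those of Ltf, which glands also make, with 4906 and 9045 normalised counts in the larynx at E18.5, against 0 in both libraries at E10.5. The gland and secretory epithelium list, which holds Ltf, summed to 16374 and 45174 in the same E18.5 libraries, against 11.8 and 13.9 at E10.5, and its part in the Ltf counts was not tested. S100a9 had 16.04 and 67.0 at E18.5, against 0 and 0.87 at E10.5. Of 12 dendritic cell genes, 2 rose over the same larynx course, a share near the 12.9% of all genes that rose, the lectin gene Clec10a (4.15), which macrophages also make, and the transcription factor gene Irf4 (5.83).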
